A study of Mus musculus with 8 samples.

Results

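Cytosolic translation initiation factors (gene symbols starting with Eif and a number) and elongation factors (Eef and a number) were examined in heart ventricle of mice with and without Cre recombinase acting on floxed Med13 and Med13l. The members were all genes of the deposited table whose symbol matched that pattern, 64 in number, less Eif4ebp1, an inhibitor that binds eIF4E, and the Y-linked Eif2s3y. This left 62 of 24341 genes. Of these, 61 had a mean of at least 1 FPKM (fragments per kilobase of transcript, scaled by the mapped fragments of the library, a level corrected for length and depth) over the 8 libraries and were tested. The exception was Eif4e1b, a cap-binding protein known from oocytes, listed at the lowest value of the table, 0.01 FPKM, in all 8 libraries.

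RNA came from whole ventricle lysates of male mice aged 12 weeks, all Med13/13L fl/fl, all fed tamoxifen chow, and 4 weeks past tamoxifen. The Pos Cre group (4 libraries, genotype Cre Positive) carried Cre, and the Neg Cre group (4 libraries, genotype Cre Negative) carried the same floxed alleles and had tamoxifen without Cre, so that effects of Cre itself and of the deletion cannot be told apart. The series title calls the deletion cardiomyocyte-specific, while the Cre line and its promoter are not named in the labels used here. Nothing in the labels says that libraries of a group are separate animals, and the names of Neg Cre 1 and 2 share a label. The p-values therefore measure the spread between these samples, which may be technical. The names of Neg Cre 2 and Pos Cre 2 also lack the ending trim that the others carry, and that of Pos Cre 2 ends in Correct. What these endings stand for is not stated in the labels used here.

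Translation begins when eIF2, charged with GTP and the initiator tRNA, joins the small ribosomal subunit with eIF1, eIF1A, eIF3 and eIF5, while eIF4F (the cap-binding eIF4E, the scaffold eIF4G and the helicase eIF4A) brings the mRNA. Elongation then runs on eEF1A, which delivers aminoacyl-tRNA and is recharged by the eEF1B complex, and on eEF2, which moves the ribosome along. Adult heart and skeletal muscle are known for using the eEF1A paralogue made from Eef1a2 alongside or in place of the broadly expressed Eef1a1.

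Transcripts of both floxed genes fell in the Pos Cre group. Med13 was at 12.0 ± 2.23 FPKM in Neg Cre and 8.13 ± 0.554 FPKM in Pos Cre (SD, n = 4, limma adjusted p = 0.00612), and Med13l at 4.92 ± 0.814 and 2.52 ± 0.113 FPKM (limma adjusted p = 0.000318). Estimated depth ran from 4.46e+06 to 2.33e+07 fragments per library. The ribosomal precursor Rn45s split the libraries into 5 with 396 to 1053 FPKM (Neg Cre 1, 3 and 4, Pos Cre 1 and 2) and 3 with 10.3 to 16.0 FPKM (Neg Cre 2, Pos Cre 3 and 4), and these sets are called high-Rn45s and low-Rn45s here. Estimated depth was 4.46e+06 to 8.53e+06 fragments in the high-Rn45s libraries and 1.52e+07 to 2.33e+07 in the low-Rn45s ones. Differences of depth and of Rn45s therefore cannot be told apart. Fixed-sum scaling brought each library to the same sum of FPKM over genes other than ribosomal RNAs, small RNAs and ribosomal protein genes. The call on Med13 was lost under it (log2 change -0.21, limma adjusted p = 0.184) and among the high-Rn45s libraries (limma adjusted p = 0.0529). Among the low-Rn45s libraries, with Neg Cre 2 as the only control, the log2 change of Med13 was -0.37. Markers of cell types differed between the groups. Of 6 cardiomyocyte markers 4 fell and 1 rose, with a summed level of 14821 to 18441 FPKM in Neg Cre libraries and 7301 to 9788 FPKM in Pos Cre libraries. Of 8 fibroblast markers 5 rose and 1 fell (633 to 749.6 against 862 to 961 FPKM), and of 8 smooth muscle and pericyte markers 4 rose and 1 fell (467 to 609.7 against 937 to 1386 FPKM). Endothelial markers fell in 4 of 8 cases (1309 to 1430.0 against 852 to 982 FPKM) and macrophage markers in 5 of 8 (269 to 339 against 167 to 241 FPKM), with none higher. Under fixed-sum scaling only Kdr and Fabp4 of the endothelial markers were still called lower, and Egfl7 was called higher (log2 change 0.26). Of the macrophage markers only C1qa and Mrc1 stayed lower. Newly called higher there were Actn2 (0.31), Pdgfra (0.51), Dcn (0.54) and Pdgfrb (0.42), where 46.7% of all genes were called higher. The call on Kcnj8 was lost (-0.08). The other calls on cardiomyocyte, fibroblast, and smooth muscle and pericyte markers were kept. Fabp4 weighed heavily in the endothelial sum (means of 972 and 615 FPKM in Neg Cre and Pos Cre). Acta2 did so in the smooth muscle and pericyte sum (194 and 779 FPKM) and Dcn in the fibroblast sum (399 and 466 FPKM). Tnnt2 (6393 and 2344 FPKM) and Myh6 (5277 and 1704 FPKM) did so in the cardiomyocyte sum, as did Nppa in Pos Cre (3577 FPKM). None of 4 tested erythroid markers was called (474 to 1102 against 457 to 712 FPKM for the list of 5, of which Hba-a2 was below 1 FPKM on average). All 5 neuron and Schwann cell markers had means under 1 FPKM, and Th was at the lowest value in 7 of 8 libraries. Markers of a type did not all move together. Ryr2 went from 303 to 38.2 FPKM while Actn2 was at 722 and 716 FPKM. Cnn1 went from 2.41 to 55.2 FPKM while Myh11, Rgs5 and Pdgfrb were not called. The part of these shifts in the results on translation factors was not tested. In bulk tissue fewer cells of a type, less RNA per cell and changes of single genes cannot be told apart.

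In 3 sets of paralogues (eEF1A, eIF4A and eIF4E) 1 gene rose and another fell in Pos Cre, and Eef1d and Eef1g of eEF1B and single subunits of eIF2, eIF2B and eIF3 fell. Of these falls, only those of Eef1d and Eif4e were called under fixed-sum scaling. With limma on log2(FPKM + 1) and p-values adjusted over all 11688 genes tested, 5 of 61 members rose and 13 fell in Pos Cre at an adjusted p under 0.05, and 43 were not called. The 18 called members make 29.5% of the members, against 39.2% of all genes tested that were called. Rises took 8.20% of members against 19.7% of all genes, and falls 21.3% against 19.4%. Sizes were small. The median absolute log2 change was 0.20 for members and 0.24 for all genes. At least 0.5 was reached by 6 members (9.84%) against 22.5% of all genes. The 6 include the uncalled Eif3j1 (-1.24), at 27.0 FPKM in Neg Cre library 2 and 0.0553 to 0.296 FPKM in the other libraries. Its mean of at least 1 FPKM rests on that library too. The groups did not overlap in 24 of 61 members (39.3%), near the 38.0% of all genes. Of them 8 were higher, against 19.3% of all genes, and 16 lower, against 18.7%. These 24 were 15 of the called members and 9 uncalled ones, of which Eef1b2, Eif4a3, Eif4b, Eif4g1 and Eif4g2 were lower and Eef2, Eif2ak3, Eif3c and Eif3l higher in each Pos Cre library.

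The 5 risers were Eef1a1, Eif6, Eif4a1, Eif4e2 and Eif1a. The 13 fallers were Eef1d, Eif4e, Eef1a2, Eif4e3, Eef2k, Eif2s1, Eif2b4, Eef1g, Eif2a, Eif4a2, Eif4enif1, Eif3g and Eif1b. How many rose depends on scaling. Under fixed-sum scaling the median of all genes moved from -0.01 to 0.26 on the log2 scale. In that setting 30 members were called higher and 2 lower, and 46.7% and 8.65% of all genes were called higher and lower. Without Neg Cre library 3, 10 members were called higher and 14 lower, against 20.0% and 19.8% of all genes. With the mean of Neg Cre libraries 1 and 2 as 1 sample, 5 were called higher and 11 lower, against 18.7% and 18.2% of all genes, and Eif1b, Eif4a2 and Eif4enif1 lost their calls while Eif5b was called lower. Under quantile normalization 9 members were called higher and 10 lower, against 19.9% and 19.4% of all genes.

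**Figure D1:**
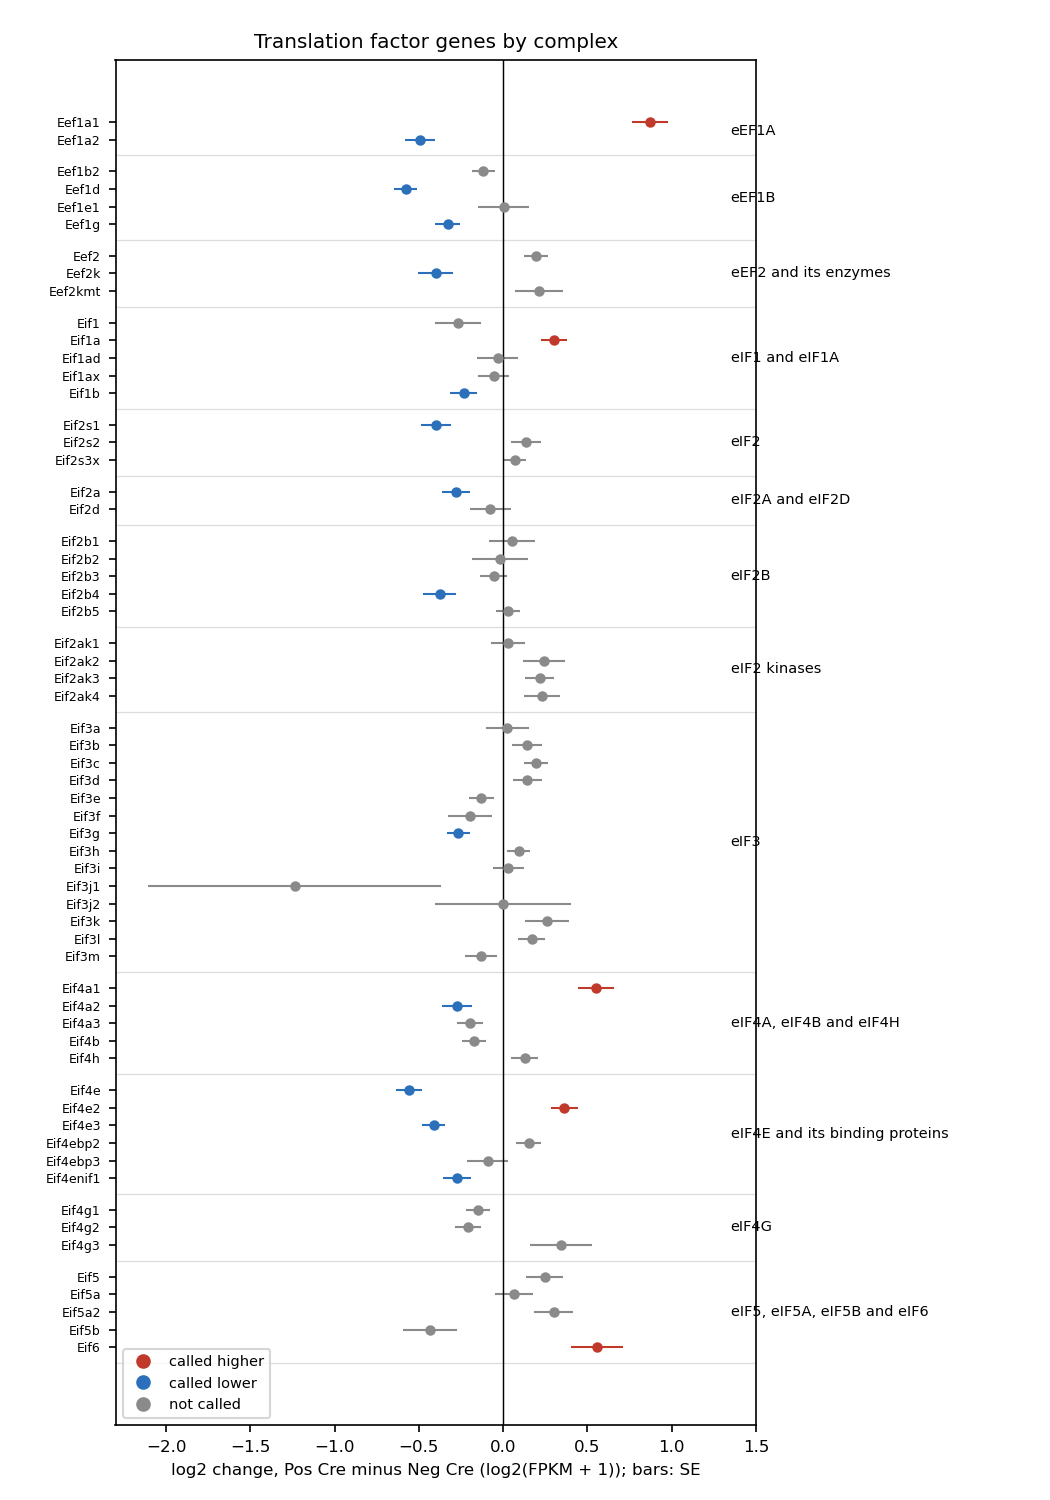
Log2 change (Pos Cre minus Neg Cre, log2(FPKM + 1) scale, x axis) of the 61 tested members, grouped by complex on the y axis with colours for called higher, called lower and not called, and bars for the standard error. Most points sit near 0, with Eef1a1 at 0.87 on the right and Eef1d at -0.58 on the left among the called members.

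The eEF1A genes, which encode the factor that brings aminoacyl-tRNA to the ribosome, showed the largest opposed pair of changes. Eef1a1 (mm10 chr9:78478454-78481724) stood at 638, 764, 580.0 and 707 FPKM in Neg Cre libraries 1 to 4 and at 1414, 1126, 1189 and 1189 FPKM in Pos Cre libraries 1 to 4. Every Pos Cre library was above every Neg Cre library. The mean went from 672 ± 80.3 to 1229 ± 127 FPKM (SD, n = 4), a ratio of 1.83, and Eef1a1 rose by 0.87 on the log2 scale (SE 0.11, limma adjusted p = 0.000125). Eef1a2 (chr2:181147692-181157015) stood at 677, 599.9, 769 and 626 FPKM in Neg Cre and 475, 453, 467 and 494 FPKM in Pos Cre. Here each Pos Cre library was below each Neg Cre library. The mean went from 668 ± 74.5 to 472 ± 17.3 FPKM, a log2 change of -0.49 (SE 0.09, limma adjusted p = 0.00151).

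Both genes stood close to each other in Neg Cre, at 672 and 668 FPKM, and FPKM is per length, so their shares can be set side by side. Eef1a2 made 51.5%, 44.0%, 57.0% and 47.0% of the summed level in Neg Cre libraries 1 to 4 and 25.1%, 28.7%, 28.2% and 29.4% in Pos Cre. The share fell by 22.0 percentage points, from 49.9% ± 5.67 to 27.8% ± 1.86 (SD, n = 4, exact two-sided permutation p = 0.0286, the smallest this design allows). With the mean of Neg Cre libraries 1 and 2 as 1 sample the difference was -22.7 points (exact permutation p = 0.0571, the smallest that 3 against 4 samples allow). The sum of both genes, a measure chosen after the values were seen and not tested, was 1340.4 ± 21.0 FPKM in Neg Cre and 1701 ± 133 FPKM in Pos Cre. Within the high-Rn45s libraries the share differed by -24.9 points, and within the low-Rn45s libraries by -15.2 points.

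Eef1a2 missed the threshold when libraries were scaled to a fixed sum (log2 change -0.18) and under quantile normalization (-0.21), while Eef1a1 was called in all 20 other settings, with a log2 change from 0.64 to 1.23. Eef1a1 has 8 near-identical copies in the annotation, all pseudogenes, of which 1 is in the deposited table, and how reads shared with them were assigned is not stated in the sources used here.

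**Figure D2:**
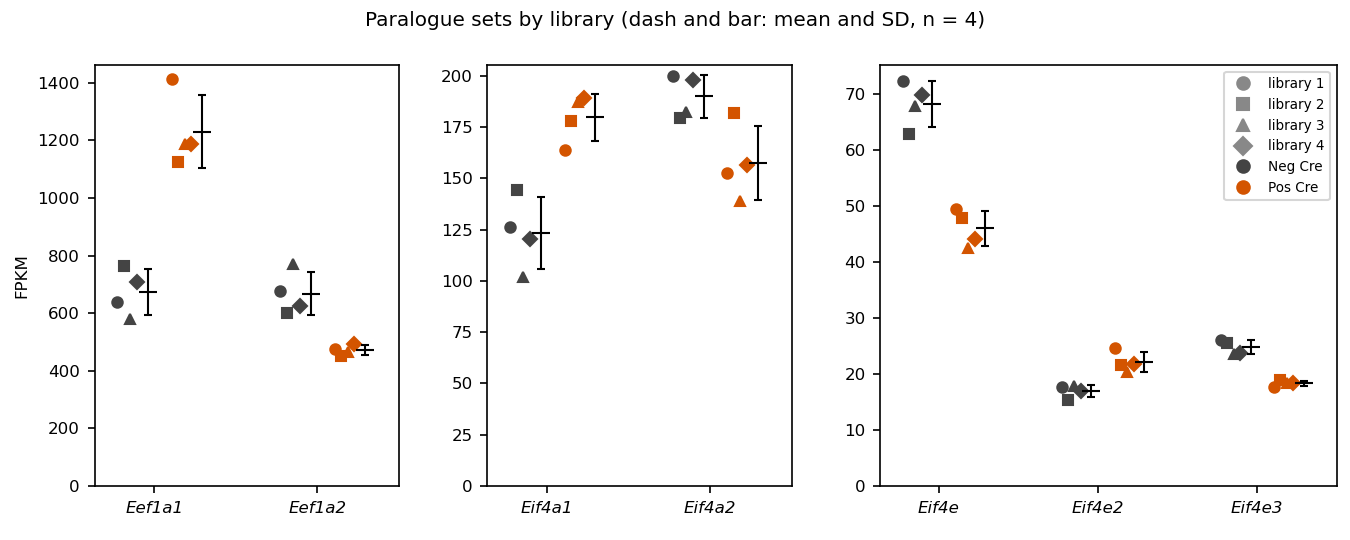
FPKM (y axis) of the eEF1A, eIF4A and eIF4E paralogues (x axis) in the 4 Neg Cre and 4 Pos Cre libraries, with symbols for libraries and a dash and bar for the mean and SD (n = 4). Eef1a1 lies between 1126 and 1414 FPKM in Pos Cre and between 580.0 and 764 FPKM in Neg Cre, while Eef1a2 lies between 453 and 494 FPKM in Pos Cre.

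**Figure D3:**
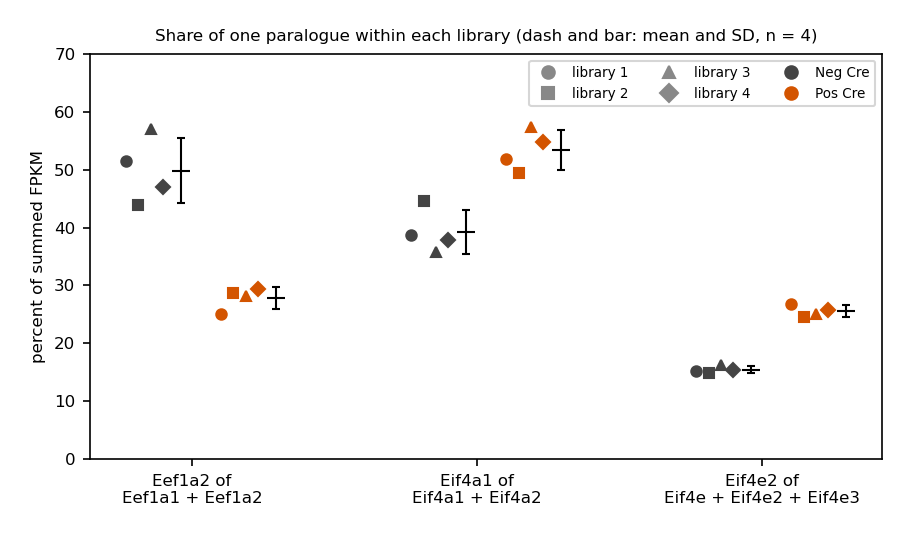
Percent of summed FPKM taken by 1 paralogue (y axis) in each library for 3 paralogue sets (x axis), with symbols for libraries and a dash and bar for the mean and SD (n = 4). The Eef1a2 share sits between 44.0% and 57.0% in Neg Cre and between 25.1% and 29.4% in Pos Cre.

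The sequences before the start of the eEF1A and eIF4A paralogues are shown because their members moved apart. The stretches are RefSeq promoter windows of GRCm38.p6 in the strand of the gene, from 200 bases before to 25 after the start: Eef1a1 chr9:78481700-78481924, minus strand, Eef1a2 chr2:181156991-181157215, minus strand, Eif4a1 chr11:69672399-69672623, minus strand, and Eif4a2 chr16:23107268-23107492, plus strand. Capitals mark every match to GGGCGG (a GC box), CACGTG (an E box), CCAAT or TATAA on either strand, none of which contains another.
Eef1a1: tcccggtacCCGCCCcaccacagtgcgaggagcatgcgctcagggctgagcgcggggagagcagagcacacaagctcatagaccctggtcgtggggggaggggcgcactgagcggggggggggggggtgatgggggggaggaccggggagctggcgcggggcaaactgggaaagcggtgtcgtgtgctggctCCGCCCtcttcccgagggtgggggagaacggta
Eef1a2: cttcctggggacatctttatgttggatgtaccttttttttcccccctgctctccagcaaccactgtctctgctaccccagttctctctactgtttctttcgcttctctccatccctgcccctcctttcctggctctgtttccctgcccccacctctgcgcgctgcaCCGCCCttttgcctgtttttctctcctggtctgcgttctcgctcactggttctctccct
Eif4a1: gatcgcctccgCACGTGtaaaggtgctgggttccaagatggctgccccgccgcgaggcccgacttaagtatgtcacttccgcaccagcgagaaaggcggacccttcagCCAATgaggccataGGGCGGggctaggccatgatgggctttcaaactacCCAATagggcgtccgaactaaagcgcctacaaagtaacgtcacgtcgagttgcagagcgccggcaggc
Eif4a2: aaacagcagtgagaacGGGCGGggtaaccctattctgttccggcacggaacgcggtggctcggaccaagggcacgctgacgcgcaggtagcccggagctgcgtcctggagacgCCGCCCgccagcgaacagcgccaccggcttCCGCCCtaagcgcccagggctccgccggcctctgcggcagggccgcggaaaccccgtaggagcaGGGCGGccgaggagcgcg
GC boxes numbered 2 in Eef1a1, 1 in Eef1a2, 1 in Eif4a1 and 4 in Eif4a2, and Eif4a1 also held 1 E box and 2 CCAAT matches. Over the whole 300-base windows of the promoter table, found for 49 of the 62 members, GGGCGG was present in 37 (75.5%) against 38.2% of 27025 genes. CACGTG was present in 12 (24.5%) against 8.09%, CCAAT in 16 (32.7%) against 41.1% and TATAA in 7 (14.3%) against 28.0%. GGGCGG was held by 3 of 3 called-higher members with a window, 8 of 10 called lower and 26 of 36 not called. The 27025 genes were taken whatever their level in ventricle, and shares among the genes tested here were not computed. These are matches of letters and show no binding.

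In the eEF1B complex, which recharges eEF1A with GTP, Eef1d and Eef1g fell. Eef1d, an exchange subunit (chr15:75894796-75909556), stood at 96.6, 97.9, 88.8 and 94.2 FPKM in Neg Cre libraries 1 to 4 and 59.7, 65.1, 61.0 and 65.7 FPKM in Pos Cre, with no overlap. Its mean went from 94.4 ± 4.02 to 62.9 ± 2.98 FPKM, a log2 change of -0.58 (SE 0.07, limma adjusted p = 9.84e-05), and it was called in all 20 other settings. Eef1g, the scaffold subunit, stood at 263, 259, 249.8 and 266 FPKM in Neg Cre and 205, 193, 197 and 232 FPKM in Pos Cre, again without overlap. It fell by 0.33 on the log2 scale (SE 0.08, limma adjusted p = 0.00653), a call lost under fixed-sum scaling (log2 change -0.01), under quantile normalization (-0.15) and in the low-Rn45s libraries (-0.28). The exchange subunit Eef1b2 (87.2 ± 3.37 and 80.3 ± 3.38 FPKM) and Eef1e1, a scaffold of the multi-synthetase complex (11.9 ± 2.10 and 11.9 ± 2.2 FPKM), were not called. Exons of Eef1d overlap those of Naprt on the same strand, and Eef1g has 4 near-identical pseudogenes.

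Eef2, the translocation GTPase, stood at 591, 589, 547 and 567 FPKM in Neg Cre and 654, 614, 668 and 685 FPKM in Pos Cre. The groups did not overlap, with a log2 change of 0.19 and a limma adjusted p of 0.0545, just short of the threshold, and it was called higher in 5 of the 20 other settings. Its kinase Eef2k, which inhibits eEF2, stood at 8.99, 6.71, 8.90 and 8.16 FPKM in Neg Cre and 5.46, 5.68, 6.24 and 6.35 FPKM in Pos Cre. Every Pos Cre library was below every Neg Cre library, although Neg Cre 2 came close. Eef2k fell from 8.19 ± 1.05 to 5.93 ± 0.432 FPKM, by 0.40 on the log2 scale (SE 0.10, limma adjusted p = 0.00981). The call was lost under fixed-sum scaling (log2 change -0.12) and in the low-Rn45s libraries, where the change was -0.08. Eef2kmt, a methyltransferase acting on eEF2, was not called (6.47 ± 1.37 and 7.61 ± 1.17 FPKM).

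Among the cap-dependent factors, the eIF4A helicases and the eIF4E cap-binding proteins each showed a rising and a falling paralogue. Eif4a1 (chr11:69666936-69672423) stood at 126, 144, 102 and 120.2 FPKM in Neg Cre libraries 1 to 4 and at 164, 178, 187 and 189 FPKM in Pos Cre. All Pos Cre values lay above all Neg Cre values. Eif4a1 rose from 123 ± 17.6 to 179.7 ± 11.7 FPKM, by 0.55 on the log2 scale (SE 0.11, limma adjusted p = 0.00219), and was called in all 20 other settings. Eif4a2 (chr16:23107468-23127730) stood at 199.8, 179.6, 182 and 198 FPKM in Neg Cre and 153, 182, 139 and 156 FPKM in Pos Cre, so the groups overlapped through Pos Cre library 2. It fell by 0.27 on the log2 scale (SE 0.09, limma adjusted p = 0.0353), a call kept in 8 of 20 other settings and turned to 0.04 under fixed-sum scaling. Eif4a1 made 39.2% ± 3.77 of the pair's summed level in Neg Cre and 53.4% ± 3.45 in Pos Cre (SD, n = 4), a share chosen after the values were seen and not tested. Eif4a3, the helicase of the exon junction complex (46.3 ± 4.13 and 40.2 ± 0.732 FPKM), and the helicase cofactors Eif4b (81.6 ± 2.76 and 72.3 ± 4.08) and Eif4h (63.2 ± 4.35 and 69.1 ± 4.85) were not called.

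Eif4e, the main cap-binding protein (chr3:138526191-138557599), stood at 72.3, 62.8, 67.9 and 69.7 FPKM in Neg Cre and 49.4, 47.8, 42.6 and 44.1 FPKM in Pos Cre, with no overlap. The mean went from 68.2 ± 4.05 to 46.0 ± 3.16 FPKM, a log2 change of -0.56 (SE 0.08, limma adjusted p = 0.000272). Eif4e3 was at 26.1, 25.5, 23.6 and 23.8 FPKM in Neg Cre and 17.7, 18.9, 18.3 and 18.3 FPKM in Pos Cre, a log2 change of -0.41 (limma adjusted p = 0.000887). Eif4e2, a cap-binding protein known for repressing translation, went the other way. It stood at 17.6, 15.4, 17.8 and 16.9 FPKM in Neg Cre and 24.6, 21.7, 20.4 and 21.7 FPKM in Pos Cre, and rose by 0.36 on the log2 scale (SE 0.08, limma adjusted p = 0.00564). Its share of the 3 genes' summed level was 15.4% ± 0.612 in Neg Cre and 25.5% ± 1.00 in Pos Cre (SD, n = 4), likewise chosen after the values were seen and not tested. Eif4e and Eif4e2 were called in all 20 other settings, and the call on Eif4e3 was lost under fixed-sum scaling (log2 change -0.11).

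Eif4enif1, the transporter that carries eIF4E into the nucleus, fell by 0.27 (limma adjusted p = 0.0257), from 12.7 ± 0.921 to 10.3 ± 0.802 FPKM, and was at 0.02 under fixed-sum scaling. It kept its call in 12 of 20 other settings. The inhibitors Eif4ebp2, at 8.05 ± 0.295 and 9.06 ± 0.459 FPKM, and Eif4ebp3, at 1.83 ± 0.353 and 1.65 ± 0.191 FPKM, were not called. None of the eIF4G scaffolds was called, except Eif4g3 as higher under fixed-sum scaling (log2 change 0.63), in the low-Rn45s libraries and without Neg Cre library 3, and Eif4g2 as lower without Neg Cre library 2. Eif4g1 stood at 118, 113, 130.3 and 119 FPKM in Neg Cre and 109.7, 103, 112 and 107 FPKM in Pos Cre, and Eif4g2 at 164, 152, 189 and 164 against 143, 149, 143 and 141 FPKM, both without overlap. Eif4g3 stood at 8.54, 6.58, 13.8 and 9.12 FPKM in Neg Cre and 14.7, 10.4, 11.3 and 11.7 FPKM in Pos Cre, with the groups overlapping.

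Of the factors that handle the initiator tRNA, eIF2 has alpha, beta and gamma subunits and eIF2B is its exchange factor. The alpha subunit Eif2s1, the target of the eIF2 kinases, stood at 28.2, 24.1, 27.6 and 25.8 FPKM in Neg Cre and 21.2, 21.8, 17.7 and 18.7 FPKM in Pos Cre, with no overlap. It fell by 0.40 on the log2 scale (SE 0.09, limma adjusted p = 0.00543), a call lost under fixed-sum scaling (log2 change -0.09). The beta subunit Eif2s2 (42.5 ± 3.38 and 46.8 ± 4.20 FPKM) and the gamma subunit Eif2s3x (50.4 ± 1.91 and 52.9 ± 2.88 FPKM) were not called. Eif2b4, the delta subunit of eIF2B, stood at 32.1, 37.8, 27.6 and 30.5 FPKM in Neg Cre and 25.0, 24.0, 22.6 and 25.6 FPKM in Pos Cre. The groups did not overlap, and Eif2b4 fell by 0.38 (SE 0.10, limma adjusted p = 0.0114). That call was lost under fixed-sum scaling (-0.07) and in the high-Rn45s libraries (-0.28). The other 4 eIF2B subunits were not called: Eif2b1 was at 13.8 ± 3.01 and 14.1 ± 0.887 FPKM, Eif2b2 at 12.6 ± 3.05 and 12.3 ± 1.93 FPKM, Eif2b3 at 11.5 ± 0.838 and 11.0 ± 0.548 FPKM, and Eif2b5 at 28.9 ± 1.53 and 29.6 ± 1.38 FPKM in Neg Cre and Pos Cre. Eif2a, an alternative initiation factor, fell from 30.0 ± 1.32 to 24.6 ± 2.26 FPKM (log2 change -0.28, limma adjusted p = 0.0198), was at 0.02 under fixed-sum scaling, and lost its call under 7 of 20 other settings. Eif2d, another alternative factor, was not called (17.7 ± 1.83 and 16.8 ± 2.70 FPKM).

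None of the 4 eIF2 kinases was called on the deposited scale with all libraries, and all had positive log2 changes in that fit. For Eif2ak1 the change was 0.03, with Pos Cre library 1 above the other Pos Cre libraries, and it was -0.20 in the low-Rn45s libraries. Under fixed-sum scaling all 4 were called higher, where 46.7% of all genes were called higher. Eif2ak2 was also called higher with the Rn45s term (0.31), beside 21.3% of all genes, and stood at 0.56 in the low-Rn45s libraries. Eif2ak3 was also called higher without Neg Cre library 3 (0.25), beside 20.0% of all genes. Eif2ak1 (HRI, known for sensing heme) stood at 15.1, 16.6, 14.0 and 14.1 FPKM in Neg Cre and 18.2, 14.3, 13.9 and 14.9 FPKM in Pos Cre. Eif2ak2 (PKR, known for sensing double-stranded RNA) stood at 8.20, 5.70, 8.65 and 8.67 against 9.16, 10.4, 9.27 and 8.45 FPKM. Both overlapped between groups. Eif2ak3 (PERK, of the endoplasmic reticulum) was at 3.42, 4.08, 4.14 and 3.47 FPKM in Neg Cre and 4.49, 4.52, 4.53 and 4.61 FPKM in Pos Cre, without overlap, with a log2 change of 0.22 and a limma adjusted p of 0.0705. Eif2ak4 (GCN2, known for sensing uncharged tRNA) was at 1.88, 1.98, 1.78 and 2.25 FPKM in Neg Cre and 2.77, 2.07, 2.38 and 2.74 FPKM in Pos Cre, with a log2 change of 0.23.

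Of the 14 eIF3 genes, whose products form the scaffold that holds the small subunit and mRNA, only Eif3g was called on the deposited scale. Under fixed-sum scaling 7 others were called higher, where 46.7% of all genes were called higher. Eif3g stood at 66.2, 71.5, 70.5 and 68.0 FPKM in Neg Cre and 56.1, 62.2, 55.1 and 55.8 FPKM in Pos Cre, without overlap. It fell by 0.27 on the log2 scale (SE 0.07, limma adjusted p = 0.0121), and the value was 0.05 under fixed-sum scaling. Its call was also lost in the high-Rn45s libraries (-0.20). The other eIF3 genes had log2 changes from -0.20 in Eif3f to 0.26 in Eif3k, the Eif3j pair apart, with Neg Cre means from 26.9 ± 3.12 FPKM in Eif3b to 145 ± 4.75 FPKM in Eif3h. Eif3c was nearest to a call among them (70.1 ± 4.22 and 80.4 ± 3.57 FPKM, limma adjusted p = 0.0531) and was called higher in 5 of 20 other settings.

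Eif3j1 and Eif3j2 encode the same loosely bound subunit and are given 1 locus in the deposited table (chr2:122028580-122118386), so that their reads may not be told apart. Eif3j1 stood at 0.194, 27.0, 0.239 and 0.243 FPKM in Neg Cre and 0.296, 0.153, 0.0553 and 0.0584 FPKM in Pos Cre, and Eif3j2 at 46.7, 10.1, 50.1 and 39.4 against 30.4, 33.6, 31.9 and 29.3 FPKM. Neg Cre library 2 alone gave most of its signal to Eif3j1. Neither gene was called, and without that library Eif3j2 was called lower (log2 change -0.52). Their sum, a measure chosen after the values were seen and not tested, was 43.5 ± 6.18 FPKM in Neg Cre and 31.5 ± 1.88 FPKM in Pos Cre (SD, n = 4).

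Of the genes for start codon selection, Eif1a rose and Eif1b fell. Eif1a stood at 9.63, 9.01, 8.92 and 10.1 FPKM in Neg Cre and 12.6, 12.2, 11.5 and 11.0 FPKM in Pos Cre, without overlap, and rose by 0.30 (SE 0.08, limma adjusted p = 0.011). The call was lost in the high-Rn45s libraries alone (0.34, limma adjusted p = 0.053) and in the low-Rn45s libraries alone (0.29, limma adjusted p = 0.0686). The more abundant X-linked Eif1ax was not called (81.0 ± 7.02 and 77.8 ± 6.89 FPKM). Eif1b fell by 0.24, from 49.2 ± 4.41 to 41.5 ± 2.09 FPKM (limma adjusted p = 0.0436), with overlapping groups, and kept its call in 7 of 20 other settings, with 0.08 under fixed-sum scaling. Eif1 (152 ± 28.2 and 125 ± 14.0 FPKM), which has 13 near-identical copies, and Eif1ad (9.31 ± 1.63 and 9.01 ± 0.927 FPKM) were not called.

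Eif6, which keeps the large ribosomal subunit from joining too early, stood at 18.2, 23.8, 15.5 and 15.9 FPKM in Neg Cre and 21.8, 25.3, 28.9 and 33.5 FPKM in Pos Cre. The groups overlapped, since Neg Cre library 2 exceeded Pos Cre library 1. Eif6 rose by 0.56 on the log2 scale (SE 0.15, limma adjusted p = 0.016), a call lost in the low-Rn45s libraries (0.37), with no filter on low values and without Neg Cre library 4. Eif5, the protein that triggers GTP hydrolysis by eIF2, was not called (41.1 ± 3.08 and 49.3 ± 7.27 FPKM), but was called higher in 4 of 20 other settings, among them the Rn45s term (log2 change 0.32) and the high-Rn45s libraries (0.37). The joining GTPase Eif5b was not called either (15.1 ± 3.76 and 10.7 ± 1.48 FPKM, limma adjusted p = 0.0535). Its fall passed the threshold in 5 of 20 other settings, as without Neg Cre library 2 (-0.58). Eif5a, which carries hypusine, stood at 201, 239, 166 and 192 FPKM in Neg Cre and 186, 203, 209 and 231 FPKM in Pos Cre, and its paralogue Eif5a2 at 0.940, 0.748, 1.26 and 1.01 against 1.47, 1.42, 1.25 and 1.62 FPKM. Both pairs of groups overlapped, and neither gene was called on the deposited scale.

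Other genes of translation, listed with earlier results of these data known, numbered 54, of which 53 were tested. Of these 3 rose and 16 fell, beside 19.7% and 19.4% of all genes. Under fixed-sum scaling 20 were called higher and 7 lower, beside 46.7% and 8.65% of all genes. Of the falls 9 were mitochondrial factors, and outside that list 7 of 43 genes fell and 3 rose. Of 10 mitochondrial translation factors 9 fell and none rose, and the list's median log2 change was -0.54 against -0.01 over all genes tested. Mtif2, a mitochondrial initiation factor, fell by 1.02 (28.3 ± 2.13 to 13.6 ± 1.85 FPKM, limma adjusted p = 3.43e-05). Mtif3, another mitochondrial initiation factor, was not called (6.25 ± 0.709 and 5.58 ± 0.280 FPKM, log2 change -0.14). The mitochondrial elongation factor Tufm fell by 0.85 (157 ± 9.10 to 87.0 ± 8.63 FPKM) and its exchange factor Tsfm by 0.71 (31.0 ± 2.85 to 18.7 ± 3.09 FPKM). Under fixed-sum scaling 5 of the 10 were still called lower, and the list's median was -0.24.

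Of 12 cap, poly(A) and eIF4F regulators 2 rose and 3 fell, near the shares of all genes (19.7% and 19.4%). Eif4ebp1, an inhibitor of eIF4E, stood at 67.8, 70.2, 66.6 and 75.1 FPKM in Neg Cre and 128, 147, 144 and 143 FPKM in Pos Cre and rose by 1.00 on the log2 scale (SE 0.07, limma adjusted p = 5.3e-06). Every Pos Cre library was above every Neg Cre library. The poly(A)-binding protein Pabpc4 fell by 0.81 (124 ± 15.7 to 70.1 ± 4.70 FPKM) and Paip2b, which binds it, by 0.49 (18.3 ± 1.15 to 12.8 ± 0.693 FPKM).

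Of 3 eIF2 phosphatase subunits, Ppp1r15a (GADD34), which targets the phosphatase to eIF2, stood at 10.3, 10.1, 10.8 and 14.1 FPKM in Neg Cre and 34.4, 32.8, 30.0 and 27.9 FPKM in Pos Cre. Every Pos Cre value was above every Neg Cre value, and it rose by 1.40 (SE 0.11, limma adjusted p = 7.48e-06). Nck1, an adaptor known to bring phosphatase to eIF2, fell by 0.28 (limma adjusted p = 0.0267). Of 10 mTORC1 and S6 kinase genes only Deptor, an inhibitor of mTOR, was called, with a fall of 0.35. Rheb, which activates mTORC1, was not called (44.5 ± 1.72 and 40.6 ± 2.31 FPKM), nor was its inhibitor Tsc2 (25.6 ± 1.12 and 23.6 ± 1.30 FPKM). Of 7 tested termination and recycling genes, Hbs1l fell by 0.41 and Denr by 0.27. None of 9 genes for hypusine and diphthamide, such as Dohh and Dph3, and neither of the 2 selenocysteine genes, Eefsec and Secisbp2, was called. Under fixed-sum scaling none of the termination, mTORC1 or phosphatase genes was called lower, with Denr and Nck1 at 0.03 each. Called higher there were 3 of 7 termination genes, 3 of 10 mTORC1 genes and 2 of 3 phosphatase subunits. So were 5 of the 9 hypusine and diphthamide genes and both selenocysteine genes, where 46.7% of all genes were called higher.

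**Figure D4:**
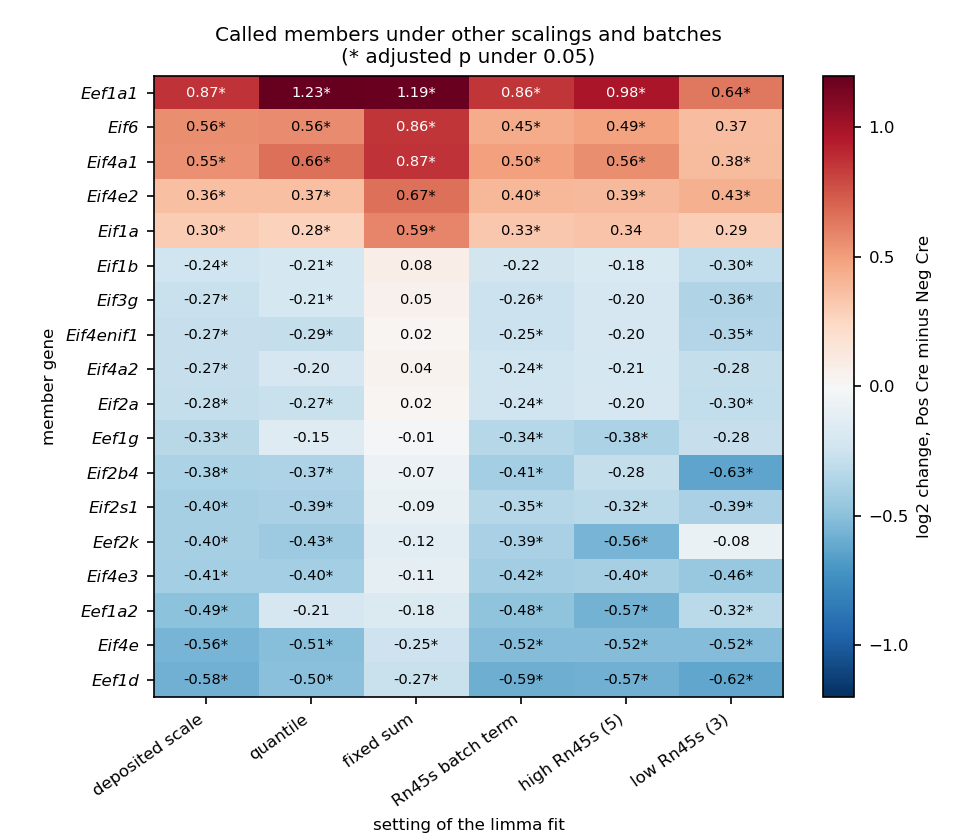
Log2 change (colour, Pos Cre minus Neg Cre) of the 18 called members (y axis) under the deposited scale and 5 other settings (x axis), with an asterisk where the limma adjusted p was under 0.05. Eef1a1, Eif4a1, Eif4e2, Eef1d and Eif4e are called in every column, and 7 of the 18 are called under fixed-sum scaling.

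Of the 18 called members, 5 kept their call in all 20 other settings (Eef1a1, Eif4a1, Eif4e2, Eef1d and Eif4e), and Eif1b, Eif4a2 and Eif6 were the 3 whose groups overlapped. Of the 43 uncalled members, 33 were called in at least 1 of the other settings, 15 of them under fixed-sum scaling only. Near-identical pseudogenes, which could share reads, number 3 for Eif4a1, 1 for Eif4a2, 1 for Eif4e and 2 for Eif2s1. Exons of Eif6, Eif4a2, Eif2b4, Eif2a, Eif1b and Eef2k overlap a gene on the opposite strand, and whether the counting used strand is not stated in the sources used here. In the high-Rn45s libraries alone, with 3 Neg Cre and 2 Pos Cre libraries, 5 members were called higher and 8 lower, against 13.4% and 13.1% of all genes. With a term for the Rn45s set, 9 were called higher and 15 lower, against 21.3% and 21.3% of all genes. The low-Rn45s set has a single Neg Cre library, assumed to vary like the others.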

How the data were processed

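RNA of 8 ventricle lysates was sequenced as ribosomal-RNA-depleted stranded libraries, per the labels' protocols. The authors deposited 1 FPKM value per gene and library. The submitters' processing notes name Bowtie2 2.2.6, Cufflinks and build mm10. Aligner settings, annotation and strand use are not stated there or elsewhere in the sources used here. The table's starts were moved by 1 to count from 1. The test used limma 3.58.1 (R 4.3.3, lmFit and eBayes with a variance trend) on log2(FPKM + 1) of the 11688 genes averaging 1 FPKM or more, with Benjamini-Hochberg adjustment over all of them and a threshold of 0.05. Log2 changes on that scale understate changes of low genes. The Eef1a2 share was tested by exact two-sided permutation over the 70 assignments of libraries, and other shares and sums, chosen after their values were seen, are descriptions. The fit was tried on 5 simulated draws of 11685 genes. Log2 changes of 0.25, 0.50 and 1.00 were called in 4.40%, 44.8% and 87.6% of 250 cases each, and unchanged genes in 0.0557%. Far fewer genes were changed there than were called in the data, so these shares need not hold for the data.

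Depth per library was estimated from genes with 1 annotated transcript, from the lowest step of FPKM multiplied by length, taken as 1 fragment. A transcript of 2 kb at 1 FPKM then rests on 8.93 to 46.5 fragments, and a count of 0 (up to 3 fragments) allows 0.0644 to 0.336 FPKM, for counting error only.

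Members and lists were chosen with earlier results of these data known. Per-library values were given for called members with the largest changes (up to 8 each way), paralogue sets, kinases and Eef2. Of each other list the up to 3 called genes with the largest change were named and the 2 most abundant if under 2 were called. Further genes were named after their values were seen. Near-identical copies are other GENCODE M21 genes with at least 95% identity over at least 300 bases. The sum of fixed-sum scaling left out symbols starting with Mir, Snor, Scarna, Rnu, Rmrp, Rpph, Rprl, Rpl, Rps, Rnr or Rn and a digit. Rn45s and genes named Rpl or Rps, mostly of ribosomal proteins, were thus outside the sum. Alternatives were pseudocount 0.1, no filter or a mean of at least 5 FPKM, quantile, fixed-sum and median-of-ratios scaling, no variance trend, an Rn45s term, subsets split at 100 FPKM of Rn45s, the mean of Neg Cre libraries 1 and 2 as 1 sample, a replicate block, and leaving out each library.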

Additional observations from a re-analysis of the deposited data

Results flagged for a closer look

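Within groups of 4 libraries, a library far from the other 3 was found in 6 of 132 groups examined, of which 122 were groups of members and 10 of paralogue shares and sums, and chance alone gives about 1 in 20 groups. Eif3j1 stood at 27.0 FPKM in Neg Cre library 2, against 0.194 to 0.243 FPKM in the other 3 Neg Cre libraries. Eif2ak2 stood at 5.70 FPKM in the same library, against 8.20 to 8.67 FPKM. Eif2d was at 12.8 FPKM in Pos Cre library 1, against 17.7 to 18.7 FPKM in the other Pos Cre libraries. In Pos Cre library 2, Eif3b was at 27.2 FPKM against 30.2 to 30.8 FPKM, and Eif3g at 62.2 FPKM against 55.1 to 56.1 FPKM. Eif4ebp2 was at 8.38 FPKM in Pos Cre library 3, against 9.22 to 9.39 FPKM.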

How the results depend on the processing

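The member counts of 5 higher and 13 lower depended most on scaling. Under fixed-sum scaling 30 members were higher and 2 lower, other translation genes numbered 20 higher and 7 lower, and the median log2 change of members was 0.30. The changes of Eef1b2 (0.20), Eif1b (0.0757), Eif2a (0.0247), Eif2b3 (0.23), Eif3g (0.0475), Eif4a2 (0.0423) and Eif4enif1 (0.0192) turned positive. These are the genes with a call on the deposited scale or under fixed-sum scaling. Members without a call on either scale also turned positive, such as Eif1 (0.05), Eif3f (0.11) and Eif4b (0.14). The factors that values were divided by were 1.07 to 1.17 in Neg Cre and 0.883 to 0.913 in Pos Cre libraries. Fixed-sum scaling thus raised Pos Cre relative to Neg Cre values. Which scale is nearer to the true levels was not tested. Quantile normalization gave 9 higher, the Rn45s term 9 higher, and the high-Rn45s libraries alone, with fewer samples, 8 lower. In the low-Rn45s libraries alone the median of members was -0.0625, the difference in the Eef1a2 share was -15.2 percentage points, and Eif3j2 stood at 1.51, where Neg Cre library 2 is the only control. Leaving out each library in turn gave 4 to 10 higher, 9 to 16 lower and medians from -0.0322 to 0.0295, and the highest count of risers came without Neg Cre library 3. Same-numbered libraries deviated with correlations from -0.162 to -0.0776, and no library correlated best with its own number. Libraries numbered 2, 3 and 4 lie in opposite Rn45s sets in the 2 groups. Neg Cre 2 correlated best with Pos Cre 3 (0.286), which is also low-Rn45s, so these correlations cannot exclude a pairing. The replicate block gave 5 higher and 9 lower (33.0% of all genes called). Low depth limits members near 1 FPKM, such as Eif5a2.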
